A study of Homo sapiens with 24 samples.

Results

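SK-N-SH is a human neuroblastoma cell line known to hold neuroblast-like cells beside flat, substrate-adherent ones. Its RNA was sequenced after a pool of small interfering RNAs (siRNAs) against FAM167A, also called DIORA1, was delivered, and after a non-targeting control pool. All 5 knockdown and 5 control libraries of this experiment were taken by their labels, 10 of the 24 libraries of the study, which also holds CRISPR interference knockdowns in SK-N-SH and in the line SK-N-AS, each with its own controls. The labels give no dose or time for the siRNA and no untreated cells for this experiment, and the pools' sequences were not among the sources. They do not say either whether the replicates are separate cultures, so the p-values below measure the spread between these libraries, which may be technical.

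FAM167A encodes a small disordered protein from a locus associated with autoimmune disease, and the study concerns its binding to the MRCK kinases, which act on myosin downstream of the GTPase CDC42, and its part in cell movement. An siRNA acts as the guide of an Argonaute protein. Full pairing with a transcript leads to cleavage, and pairing of the guide's seed, bases 2 to 8 from its 5′ end, with a 3′ untranslated region (3′ UTR) can lower other transcripts moderately. A non-targeting control carries other seeds, so a comparison of 2 pools holds the effects of the target and of both pools' seeds together.

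FAM167A was measured at 187, 193, 168, 201 and 191 CPM (the counts-per-million unit: a gene's reads relative to all reads in tested genes, after scaling by TMM factors) in control libraries 1 to 5. It was at 63.4, 71.4, 57.7, 67.7 and 65.9 CPM in knockdown libraries 1 to 5. The 2 groups did not overlap. The level fell from 188 ± 12.5 to 65.2 ± 5.13 CPM (mean ± SD, n = 5 each), a log2 fold change of -1.53 ± 0.055 (± standard error throughout) with an adjusted p of 7.87e-14 in edgeR's quasi-likelihood test. That left 34.7% of the control level.

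The libraries held 71464698 to 90255175 reads in genes, and 21018 of the 58735 genes in the table had enough reads to be tested. Knockdown library 4 and control library 5 stood apart from their groups, with knockdown library 1. The root mean square of a library's log2 distance from the rest of its group over 12269 genes was 0.146 in knockdown 4, 0.153 in control 5 and 0.147 in knockdown 1, and 0.0908 to 0.120 in the others. Knockdown 4 and control 5 also had a read in the most genes, 30824 and 30744, against 28999 to 30551. The first principal component, 47.8% of the variance, put every knockdown library on one side and every control on the other, and the second, 17.3%, had knockdown 4 and control 5 at one end and knockdown 1 at the other. Counts are therefore given with all 10 libraries and, where it changes them, without knockdown 4 and control 5. Knockdown 3 and 4 were the closest knockdown pair, with a chi-square per gene of 7.85 for their difference. Either was at 27.3 to 44.6 from knockdown 1, 2 and 5, and knockdown 3 stays in the fit without knockdown 4 and control 5.

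Knockdown changed 2004 genes at an adjusted p under 0.05, 9.53% of those tested. Of these 1468 fell (6.98%) and 536 rose (2.55%). Most changes were small: 930 of the 2004 were under 1.2-fold, 702 lay between 1.2- and 1.5-fold and 225 between 1.5- and 2-fold. Falls outnumbered rises at every size. Under 1.2-fold 577 fell and 353 rose, from 1.2- to 1.5-fold 581 and 121, and from 1.5- to 2-fold 181 and 44. By 2-fold or more 129 fell and 18 rose, and 14 fell and 1 rose by 4-fold or more. The median fold was 1.24 among genes that fell and 1.16 among genes that rose. Groups did not overlap for 1836 genes (8.74% of those tested), with the knockdown libraries lower for 1278 (6.08%) and higher for 558 (2.65%).

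Without knockdown 4 and control 5 the test called 2204 of 20987 genes (10.5%), of which 1572 fell and 632 rose. The calls of both fits shared 1751 genes in the same direction, 87.4% of the 2004 and 79.4% of the 2204, and none was called in opposite directions. The 253 calls that were lost held 129 rises and 124 falls with a median size of 0.18 on the log2 scale, and 11 of them were 2-fold or more. The largest, at 2.08 on the log2 scale, was the only rise of 4-fold or more, a locus annotated as TEC. The count of rises of at least 2-fold moved most, from 18 to 41, while falls of at least 2-fold went from 129 to 140. Leaving out control 5 alone gave 774 rises and 88 rises of at least 2-fold, leaving out control 4 alone gave 282 rises, and rises also dropped by over 1.5 times without knockdown 3 (331), control 1 (345) or control 2 (297).

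**Figure D1:**
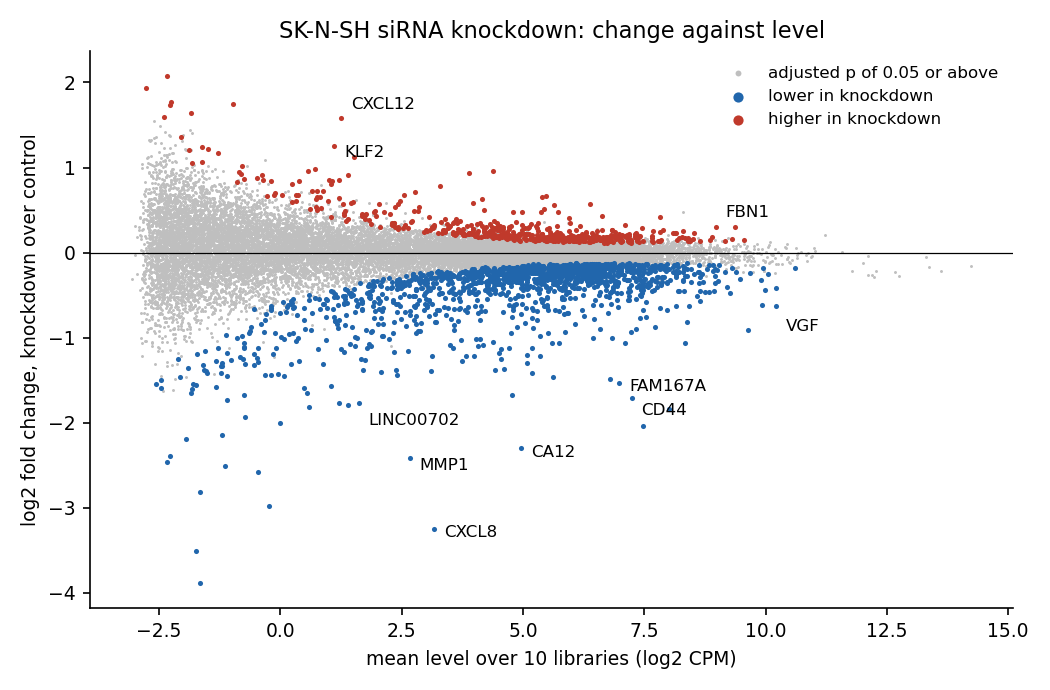
Each point is a tested gene, with its mean level over the 10 libraries in log2 CPM on the horizontal axis and the log2 fold change of knockdown over control on the vertical axis; blue and red mark the 1468 genes that fell and the 536 that rose at an adjusted p under 0.05. Falls reach further from 0 than rises at every level above 2 log2 CPM, and few genes under 0 log2 CPM were called.

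By number of reads, the largest loss was that of VGF. This secretory granule protein stood at 1453, 1462, 1518, 1452 and 1349.7 CPM in the controls and 874, 908, 1018, 934 and 953 CPM in the knockdown libraries. The groups did not overlap, and VGF fell by 0.63 on the log2 scale (SE 0.049, adjusted p = 4.17e-09). SCG2, another granin of the same granules, went from 1182 ± 51.9 to 769 ± 28.7 CPM and NT5E, the surface enzyme CD73 that makes adenosine, from 1039.6 ± 92.5 to 553 ± 32.4 CPM. Among the 10 largest losses were also the protease PLAU (-2.04 ± 0.068), the integrin chains ITGA3 (-0.44 ± 0.059) and ITGA2 (-1.83 ± 0.057), the protease PAPPA (-1.06 ± 0.068), which cleaves IGF-binding proteins, the membrane scaffold ANXA2 (-0.47 ± 0.057), all as log2 fold changes, and the mitochondrial ribosomal RNA MT-RNR1. MT-RNR1 was called with all libraries (-0.32 ± 0.085, adjusted p = 0.0275) and not without knockdown 4 and control 5 (adjusted p = 0.0673). Its low values were in 2 libraries, 711 CPM in knockdown 3 and 706 CPM in knockdown 4, against 929 to 959 CPM in the other knockdown libraries.

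The largest gains in reads were smaller in ratio. FBN1, the fibrillin of microfibrils, stood at 614, 595, 568, 598 and 608 CPM in the controls and at 668, 750.4, 831, 792 and 632 CPM in the knockdown libraries. Knockdown 3 and 4 were the highest and knockdown 5 the lowest, still above all controls, and the rise was 0.30 ± 0.061 (adjusted p = 0.00211). The receptor tyrosine kinase RET, which mediates GDNF signals, rose from 451 ± 24.1 to 557 ± 21.3 CPM (0.31 ± 0.045), with every knockdown library above every control. COL5A1 (0.42 ± 0.076), a fibrillar collagen, CENPF (0.23 ± 0.048), a kinetochore protein of dividing cells, PLEKHA6 (0.26 ± 0.054) and the spectrin SPTAN1 (0.19 ± 0.048) also rose. PRKDC (0.15 ± 0.047), the DNA-dependent protein kinase, SLIT3 (0.16 ± 0.046), a ligand of ROBO receptors, HNRNPH1 (0.15 ± 0.047), a splicing factor, and HAND2-AS1 (0.13 ± 0.041) rose close to the threshold. Leaving out 1 library in turn ended the call of HAND2-AS1 in 8 of 10 fits, of PRKDC and HNRNPH1 in 7 and of SLIT3 in 6.

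Genes whose 3′ UTR holds certain 7-base words fell more often than genes without them. The 3′ UTR of 1 transcript per gene was read from the GENCODE release 29 annotation of GRCh38. Words were ranked on odd-numbered chromosomes by the mean log2 fold change of their holders, after a linear term for 3′ UTR length and weighted by the square root of their number, over 16183 heptamers. They were then described on even-numbered chromosomes and X, whose genes took no part in the ranking. GGGAGCT ranked first. The next 2, GGAGCTA and TGGGAGC, overlap it by all bases but 1, and CAGCGAA was the highest-ranked word that does not overlap it.

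Of 11325 protein-coding genes with a 3′ UTR and a mean of at least 2 log2 CPM, 1243 fell (11%). On even-numbered chromosomes and X the share was 10.9% of 5196. Of these, 762 held GGGAGCT on the transcript strand and 18.4% of them fell, 111 held CAGCGAA and 26.1% fell, and 108 held the octamer GGGAGCTA and 27.8% fell. Where the same word was only in the 5′ UTR or coding sequence, the shares were 10.3%, 14.2% and 9.77%. Over all chromosomes GGGAGCT is in 14.7% of these 3′ UTRs, CAGCGAA in 2.15% and GGGAGCTA in 2.19%. The pool sequences were not among the sources, so whether either word matches a guide was not tested.

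The 8 sites printed here belong to genes with a symbol, not on the chromosome of FAM167A: the 4 largest called falls among holders of GGGAGCT, then the 4 largest among the remaining holders of CAGCGAA. They are shown because they are the genes of the largest changes below, and to let the surroundings of the heptamer be compared. Only PLAU and NRP1 lie on an even-numbered chromosome, and the other genes took part in the ranking of words. PTPRJ, listed for CAGCGAA, also holds the octamer GGGAGCTA in its 3′ UTR, so its fall goes with both words. Each is 26 bases of the reference 3′ UTR, 5′ to 3′ in transcript direction, with the heptamer in capitals.
CA12: caagtgacctaatGGGAGCTcaaatg
PLAU: tgaggtctcttgaGGGAGCTtagcca
ITGA2: ctccttaacttcaGGGAGCTattttc
CD44: cataaccattacaGGGAGCTgggaca
CHST1: tccccccttagagCAGCGAAactgcc
SOX9: tggctaaatggagCAGCGAAatcaac
NRP1: gtttcaaaatgaaCAGCGAAgcctta
PTPRJ: accgtcgcacccaCAGCGAAggcaca
On GRCh38 these sites lie in the 3′ UTR, in order, of CA12 at chr15:63324585-63324610 on the minus strand, PLAU at chr10:73916967-73916992 on the plus strand, ITGA2 at chr5:53091740-53091765 on the plus strand, CD44 at chr11:35229374-35229399 on the plus strand. The others lie in that of CHST1 at chr11:45649167-45649192 on the minus strand, SOX9 at chr17:72124639-72124664 on the plus strand, NRP1 at chr10:33177630-33177655 on the minus strand and PTPRJ at chr11:48167396-48167421 on the plus strand.

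CA12, a membrane carbonic anhydrase, stood at 48.7, 49.8, 57.8, 53.1 and 49.4 CPM in the controls and at 9.81, 10.8, 11.8, 9.89 and 10.3 CPM in the knockdown libraries. No knockdown library came near the controls, and CA12 fell by 2.30 on the log2 scale (SE 0.061, adjusted p = 4.81e-17). CD44, the hyaluronan receptor, stood at 230.2, 224, 235, 257 and 211 CPM in the controls and 64.6, 77.0, 69.9, 71.2 and 72.5 CPM in the knockdown libraries. It too was lower in every knockdown library, by 1.70 (SE 0.052, adjusted p = 1.04e-15). SOX9, a transcription factor of neural crest and cartilage, stood at 31.96, 32.9, 34.1, 35.6 and 28.99 CPM in the controls and 13.2, 14.6, 13.9, 13.8 and 13.5 CPM in the knockdown libraries. All knockdown libraries were under all controls, and the log2 fold change was -1.25 ± 0.058 (adjusted p = 5.29e-13). The others were PLAU (-2.04 ± 0.068), ITGA2 (-1.83 ± 0.057), the sulphotransferase CHST1 (-1.40 ± 0.11), the semaphorin and VEGF co-receptor NRP1 (-0.94 ± 0.045) and the receptor phosphatase PTPRJ (-0.88 ± 0.058).

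The same genes were not lower in CRISPR interference knockdown of FAM167A in the same line (3 knockdown and 3 control libraries of that experiment). There the log2 fold changes were 1.11 ± 0.088 for CA12, 1.28 ± 0.044 for PLAU, 1.27 ± 0.042 for ITGA2, 0.41 ± 0.040 for CD44, 1.53 ± 0.32 for CHST1, 0.66 ± 0.047 for NRP1 and 0.30 ± 0.065 for PTPRJ, all positive and past the threshold. SOX9 was at 0.12 ± 0.073 there (adjusted p = 0.159). Over all holders in that experiment, 31.6% of GGGAGCT genes, 35.0% of CAGCGAA genes and 27.1% of GGGAGCTA genes were called lower, beside 30.2% of all 11259 genes measured in both. The difference between the experiments was not tested.

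Longer 3′ UTRs hold more words, so the shares were also taken within 5 equal classes of 3′ UTR length, over all chromosomes, those of the ranking included. From the shortest class to the longest, 16.7%, 21.1%, 21.9%, 20.6% and 17.8% of genes with either heptamer fell, beside 8.67%, 9.92%, 9.92%, 9.45% and 8.37% of genes with neither. With no site 9.30% of 9477 genes fell, with 1 site 18.7% of 1516, and with 2 or more 23.5% of 332. Rises were not more frequent among holders: 3.41% of those with either word rose, and 3.99% of those with neither. Without knockdown 4 and control 5 the shares over all chromosomes moved from 19.5% to 19.3% for GGGAGCT, stayed at 22.1% for CAGCGAA and moved from 29.4% to 29.8% for GGGAGCTA.

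Over all chromosomes, those of the ranking included, most falls were in genes without either word. Of the 1243 genes that fell, 362 (29.1%) held one, beside 16.3% of all 11325 genes and 14.3% of the 441 that rose, and 15 of the 44 that fell by 2-fold or more did. The median change of holders was small, -0.029 on the log2 scale for GGGAGCT, -0.034 for CAGCGAA and -0.064 for GGGAGCTA. On even-numbered chromosomes and X alone these medians were -0.023, -0.030 and -0.039. FAM167A holds both words itself, the octamer from base 508 and CAGCGAA from base 2148 of its 2910-base 3′ UTR. No mature human miRNA among 2545 in RefSeq has bases 2 to 8 complementary to either heptamer.

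**Figure D2:**
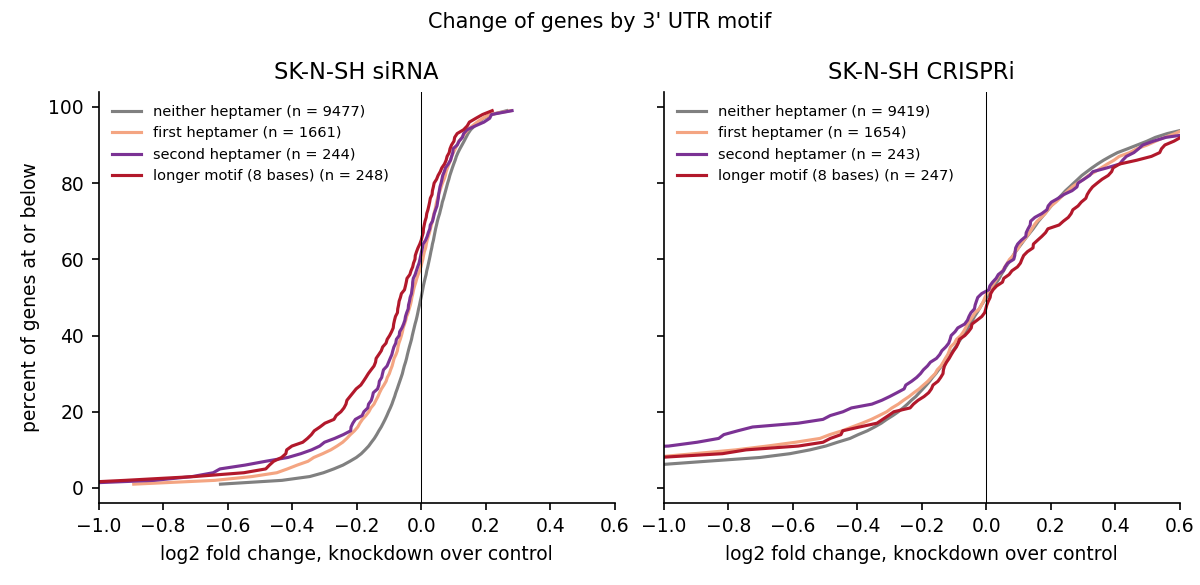
Curves give the percent of genes at or below each log2 fold change for genes whose 3′ UTR holds the first-ranked heptamer (1661 genes), CAGCGAA (244, drawn as the second heptamer), the octamer (248) or neither heptamer (9477), in the siRNA experiment on the left and CRISPR interference on the right. All chromosomes are drawn, those of the ranking included. On the left the curves of holders lie left of the grey curve below 0. On the right they also lie left of it in the low tail and cross it further up. The 10th percentile there is -0.777 for the first heptamer, -1.27 for CAGCGAA and -0.745 for the octamer, beside -0.547 for neither.

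The share of genes called was larger at higher levels. Genes were binned by mean log2 CPM over all 10 libraries. Below 0, 98 of 5937 genes (1.65%) were called, and the median standard error of the log2 fold change was 0.34. The share was 6.01% of 2812 genes from 0 to 2, 10.6% of 3129 from 2 to 4, 14.4% of 5259 from 4 to 6, 16.9% of 3305 from 6 to 8 and 16.3% of 576 from 8 upwards, where the median standard error was 0.047. The median size of a called change went the other way, from 1.26 in the lowest bin to 0.20 from 6 to 8 and 0.23 from 8 upwards. Falls outnumbered rises in every bin, at 70.7% to 76.6% of the calls. The rises without knockdown 4 and control 5 went from 26 to 45 below 0 and from 48 to 85 from 0 to 2, still fewer than the falls (79 and 127).

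The leading genes of each bin, among those with a symbol and groups that do not overlap, were of different kinds. Below 0, CSF2, the cytokine GM-CSF, fell by 3.88 on the log2 scale, from 0.569 ± 0.260 to 0.0376 ± 0.0301 CPM, and MAGEC3, a cancer-testis antigen, rose by 1.77 ± 0.43. Their levels are those of few reads: CSF2 had 0 to 6 reads per knockdown library and 24 to 73 per control. From 0 to 2 the largest fall was REM1 (-1.81 ± 0.19), a small GTPase, and the largest rise CXCL12 (1.58 ± 0.14). From 2 to 4 they were CXCL8 (-3.25 ± 0.37) and MEST (0.94 ± 0.071), an imprinted gene, and from 4 to 6 CA12 (-2.30 ± 0.061) and CPA4 (0.96 ± 0.056), a carboxypeptidase. From 6 to 8 PLAU fell by 2.04 and HEG1 (0.57 ± 0.048), a mucin-like membrane protein, rose. From 8 upwards PAPPA fell by 1.06 and RET rose by 0.31. Rises of at least 2-fold all lay below 2 log2 CPM (15 below 0 and 3 from 0 to 2), whereas falls of that size occurred in every bin.

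The gene length listed in the authors' table went with direction. The 14589 protein-coding genes were split into 5 equal classes by this length (207 to 118976 bases). The middle class ran from 4273 to 5884 bases, and the header does not say whether introns are counted. It is therefore not to be read as the span of the gene on the chromosome. Falls numbered 228, 282, 287, 294 and 288 from the shortest class to the longest, and rises 32, 66, 78, 134 and 182. In the shortest class 87.7% of the 260 calls were falls, and in the longest 61.3% of 470. The median log2 fold change went from -0.025 in the shortest class to 0.026 in the longest, and from -0.031 to 0.027 without knockdown 4 and control 5. Library composition moved with length as well. Against its group, the shortest class stood at a median log2 distance of -0.056 in knockdown 4, -0.084 in control 5 and 0.085 in knockdown 5, distances that exceed the medians of the comparison. The part of these library differences in the relation with length was not tested.

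Calls were concentrated in protein-coding genes. Of 14589 tested, 1379 fell (9.45%) and 492 rose (3.37%), 12.8% in all. Long non-coding biotypes had 3868 tested members of 14994 in the table, of which 63 fell and 34 rose (2.51%), and pseudogene biotypes 2011 of 15224, of which 22 fell and 7 rose (1.44%). Small RNA biotypes had 221 tested members of 7074, and 1 was called. The long non-coding biotypes had 76 falls and 58 rises without knockdown 4 and control 5, and the pseudogene biotypes 20 falls and 29 rises, so there the rises outnumbered the falls. The libraries were made from messenger RNA captured on poly-T beads, so small RNAs without a poly(A) tail are outside what this preparation is made to recover. Of the 3868 long non-coding genes 2527 were below 0 log2 CPM, where 1.11% of them were called, beside 3.65% of 1753 protein-coding genes. From 0 to 2 log2 CPM 4.16% of 890 long non-coding and 8.33% of 1404 protein-coding genes were called, from 2 to 4 6.27% of 335 and 11.9% of 2521, from 4 to 6 9.57% of 94 and 14.6% of 5074, and from 6 to 8 5.26% of 19 and 17.0% of 3270.

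Among intergenic long non-coding RNAs (lincRNA), 33 fell and 16 rose of 1402, and 39 and 27 without knockdown 4 and control 5. The genes named for a biotype are the largest called changes among members with a symbol other than a clone name, a mean of at least 0 log2 CPM and groups that do not overlap. LINC00702 stood at 4.59, 4.78, 5.46, 4.396 and 4.54 CPM in the controls and at 1.40, 1.66, 1.17, 1.00 and 1.70 CPM in the knockdown libraries. All knockdown libraries were under 2 CPM and all controls over 4 CPM, and the log2 fold change was -1.77 ± 0.14 (adjusted p = 2.88e-09). LINC00973 (-1.57 ± 0.16) and LINC01119 (-1.04 ± 0.19) were the next falls by that rule. The first rise by it was MIR503HG, the host transcript of a microRNA, at 22.4, 23.9, 24.0, 23.3 and 22.9 CPM in the controls and 27.6, 32.7, 35.1, 33.8 and 32.8 CPM in the knockdown libraries. The lowest knockdown library, number 1, was still above every control, and the log2 fold change was 0.47 ± 0.058. MIR503, whose locus lies within MIR503HG on the same strand, rose by 0.85 ± 0.15, and reads of the 2 cannot be told apart with certainty. LINC00599 (0.22 ± 0.060) and LINC00664 (0.42 ± 0.13) rose as well, and leaving out 1 library ended the call of the former in 2 and of the latter in 8 of 10 fits.

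Among antisense genes 21 fell and 9 rose of 1815, and 25 and 21 without knockdown 4 and control 5. LUCAT1, a stress-induced RNA, was at 4.35, 4.07, 4.84, 5.27 and 5.02 CPM in the controls and 1.88, 1.95, 1.42, 2.03 and 1.77 CPM in the knockdown libraries, a fall of 1.38 on the log2 scale with no overlap. STXBP5-AS1 (-0.90 ± 0.17) and EPHA1-AS1 (-0.76 ± 0.10) fell as well. EPHA1-AS1 overlaps OR10AC1, an olfactory receptor locus annotated as a polymorphic pseudogene on the other strand, which fell from 30.8 ± 1.86 to 11.9 ± 0.879 CPM (-1.38 ± 0.062). The sources do not state whether the counting used strand, so reads of overlapping genes on opposite strands cannot be told apart. Of 531 antisense genes with a tested namesake, 13 were called, and 6 of these had a called partner, 5 in the same direction. The exception was RBPMS-AS1 (-1.54 against 0.22 for RBPMS). Among processed transcripts were LINC00963 (processed transcript, 50.5 ± 1.68 to 33.9 ± 1.67 CPM, -0.58 ± 0.046), ZFPM2-AS1 (-0.84 ± 0.10), LINC00511 (-0.51 ± 0.12) and OIP5-AS1, an abundant RNA that rose from 123 ± 5.56 to 142 ± 4.65 CPM (0.21 ± 0.040).

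Processed pseudogenes moved with their parents where both were called. Of 658 processed pseudogenes with a tested parent symbol, 11 were called, 7 of them with a called parent, and all 7 in the parent's direction. FTH1P2 (-0.38 ± 0.10), a copy of the ferritin heavy chain, and TWF1P1 (-0.52 ± 0.12), a copy of the actin-binding twinfilin, were among them, beside FTH1 (-0.46) and TWF1 (-0.42). FAM3C2 (-0.86 ± 0.11) was the first fall among the processed pseudogenes by the rule above. Reads shared between a gene and a near-identical copy make these values uncertain. RPL23AP53 (-0.50 ± 0.094) and FAM86C2P (-0.37 ± 0.089) fell. The falls of FAM86JP (-0.29 ± 0.086) and KRT8P12 (-0.24 ± 0.075) and the rise of ZNF37BP (0.16 ± 0.047) lost their call in 6, 8 and 7 of the 10 fits that leave out 1 library, and FAM86JP also without knockdown 4 and control 5.

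Some biotypes with few calls had a median above that of all genes. The 291 sense-intronic genes had a median log2 fold change of 0.16, with 212 positive and 79 negative and 2 called, both rises. The 314 loci annotated as TEC, a class of transcripts awaiting experimental support, had a median of 0.13 with 209 positive, 2 rises and 3 falls, and the 1815 antisense genes, most of whose called members fell, a median of 0.053. The median over all tested genes was 0.0085. These classes were also high in the libraries that stood apart: sense-intronic genes lay at a median log2 distance from their group of 0.26 in knockdown 4 and 0.31 in control 5, and TEC loci at 0.25 and 0.36. Without those libraries the medians were 0.18 for sense-intronic genes, 0.12 for TEC loci and 0.073 for antisense genes.

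The share of each library's reads by biotype was compared with an exact two-sided permutation test, which cannot go below p = 0.00794 for 5 against 5, adjusted over 19 classes. Protein-coding genes took 96.4% to 96.7% of reads in every library. With all libraries no class passed (lowest adjusted p = 0.226). Sense-intronic reads made up 0.0406, 0.0387, 0.0392, 0.0376 and 0.0475% of reads in control libraries 1 to 5 and 0.0447, 0.0423, 0.0458, 0.0542 and 0.0421% in knockdown libraries 1 to 5. Control 5 lay within the knockdown range and the other controls below it. Without knockdown 4 and control 5 every knockdown library exceeded every control in the shares of sense-intronic, sense-overlapping, antisense, lincRNA, TEC, misc_RNA and miRNA reads and of transcribed unitary and transcribed unprocessed pseudogenes. In polymorphic pseudogenes every knockdown library was below every control. Each of these 10 classes was at the smallest p that 4 against 4 allows, 0.0286 (exact permutation test), which adjusted to 0.0543 and did not pass. In all 10 control 5 lay within the knockdown range, so the groups separate because that library was left out. The p of 0.0286 is therefore no added evidence of a difference. The misc_RNA class was 85.2% RN7SL2, the RNA of the signal recognition particle, a gene singled out after its values were seen. It stood at 204, 184, 214, 220.1 and 497 CPM in the controls and 447, 377, 320.4, 479 and 217 CPM in the knockdown libraries, so control 5 was the highest of all and the groups overlapped (adjusted p = 0.476). Mitochondrial reads ranged from 6.41% in knockdown 4 and 6.45% in knockdown 3 to 7.83% to 9.07% in the others, and all 16 tested mitochondrial genes had a negative log2 fold change with 1 called. Ribosomal protein genes took 4.69% to 4.78% of reads in knockdown 3, knockdown 4 and control 5 and 5.20% to 5.81% in the others.

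**Figure D3:**
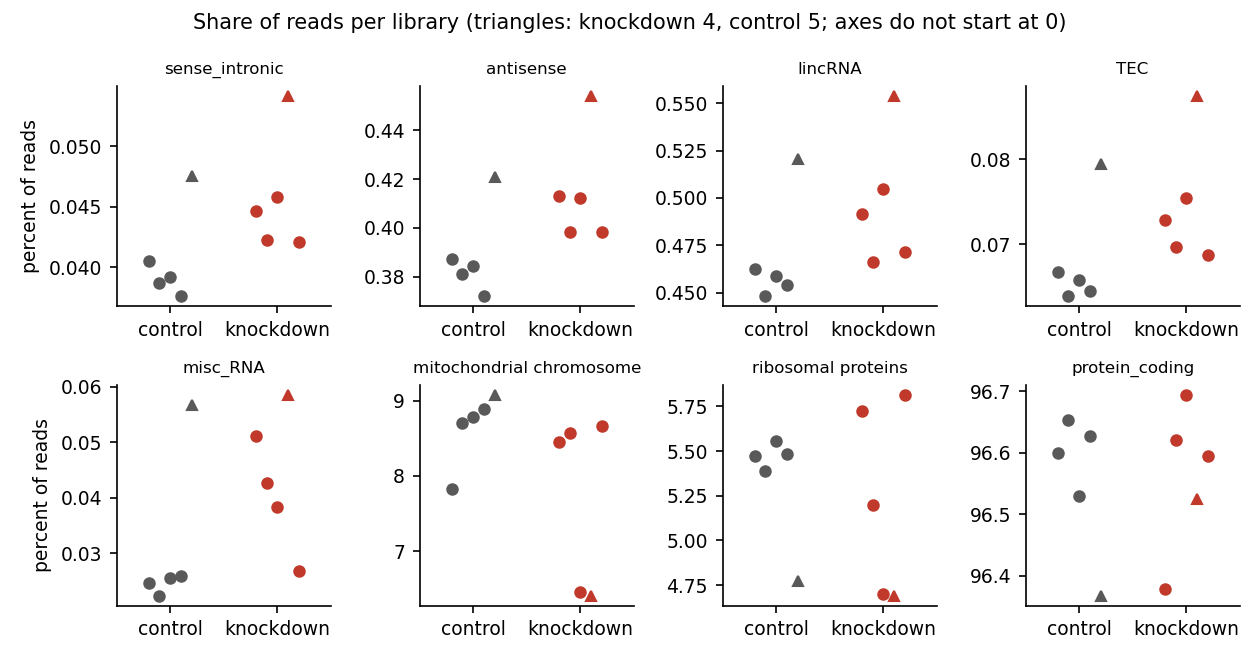
Each panel shows the percent of a library's reads in a class of genes, with 5 control and 5 knockdown libraries as points and triangles for knockdown 4 and control 5. In the sense-intronic, antisense, lincRNA, TEC and misc_RNA panels control 5 sits among the knockdown libraries and the other 4 controls lie below all of them.

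To describe the change by kind of gene, tested genes were grouped into 73 families by gene symbol, 3871 genes in all. Among these are 5 families of non-coding genes, with 26 falls and 8 rises of 1031 (3.30%), beside 9.53% called of all tested genes. Falls outnumbered rises in 56 families, rises outnumbered falls in 10, and no member was called in 3. Without knockdown 4 and control 5 these counts were 56, 11 and 1. The share called was 30.1% of 276 matrix and secreted genes (66 falls and 17 rises), 20.8% of 274 cell surface genes (50 and 7), 19.7% of 213 genes of cytoskeleton and traffic (32 and 10) and 19.6% of 255 signalling genes (40 and 10), beside 12.8% of all protein-coding genes. It was 15.6% of 167 genes of metabolism (23 and 3) and 14.7% of 434 of transport (52 and 12). Families of nuclear proteins had 24 falls and 19 rises of 688 (6.25%), and those of RNA and protein metabolism 27 and 16 of 533 (8.07%). The families differ in level as well as in kind, and these shares are a description.

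Falls made up 9.45% and rises 3.37% of all protein-coding genes, and the counts of each family are to be read beside these shares. Of 20 integrin chains, the receptors that bind cells to matrix, 8 fell and none rose. ITGA2, a collagen-binding chain, stood at 404, 381, 427, 436 and 350.1 CPM in the controls and 105, 119, 117, 114 and 105 CPM in the knockdown libraries. Control 5 was the lowest control and still far above the knockdown libraries, and the log2 fold change was -1.83 ± 0.057 (adjusted p = 6.77e-15). The laminin-binding ITGA6 (-0.87 ± 0.066), the fibronectin-binding ITGA5 (-0.71 ± 0.061) and the vitronectin-binding ITGB3 (-0.70 ± 0.084) fell with ITGA3 and 3 others. Semaphorins, guidance ligands, and their plexin and neuropilin receptors had 12 falls and no rise among 31, led by NRP1, SEMA3D (-0.84 ± 0.047), SEMA5A (-0.48 ± 0.043) and SEMA3C (-0.44 ± 0.043). Of 10 syndecans and glypicans, heparan sulphate proteoglycans of the membrane, 4 fell, among them SDC3 (-0.46 ± 0.045) and GPC1 (-0.39 ± 0.064), and GPC3 rose (0.35 ± 0.10). Without knockdown 4 and control 5 GPC3 was no longer called. Other surface families were near the share of all protein-coding genes, with 2 falls among 20 claudins and connexins (10%), 2 among 18 ephrins and Eph receptors (11.1%) and 7 among 67 leucine-rich repeat proteins (10.4%). Cadherins and protocadherins had 10 falls (12.3%) and 1 rise among 81, with CDH2, the N-cadherin of neural and mesenchymal cells, going from 500.2 ± 10.7 to 362 ± 15.01 CPM (-0.47 ± 0.041) and CDH18 falling by 1.26. Tetraspanins, organisers of membrane domains, had 5 falls of 27, with CD82 (-0.44 ± 0.072) and the vesicle marker CD63 (-0.36 ± 0.072), and TSPAN2 rose (0.60 ± 0.11).

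Matrix and its enzymes moved in both directions. Of 34 collagens 9 fell and 2 rose: COL6A3 (-1.02 ± 0.070), COL13A1 (-0.95 ± 0.093), COL15A1 (-1.03 ± 0.13) and COL8A1 (-0.55 ± 0.053) fell, while COL5A1 rose. COL5A1 was at 206, 196, 188, 189 and 185 CPM in the controls and 221, 241, 291, 298 and 234 CPM in the knockdown libraries. Knockdown 3 and 4 were the highest, and all 5 lay above the controls. The laminin chains LAMB3 (-1.42 ± 0.062) and LAMC1 (-0.45 ± 0.045) fell and LAMA4 rose (0.18 ± 0.045). Among metalloproteinases and their inhibitors 4 of 19 fell, including MMP1, an interstitial collagenase, from 10.7 ± 2.09 to 2.01 ± 0.257 CPM (-2.41 ± 0.13), MMP14 (-0.76 ± 0.051), which is anchored in the membrane, and MMP3 (-0.68 ± 0.11). ADAM19 (-0.65 ± 0.046), ADAM23 (-0.40 ± 0.049) and ADAMTS12 (-0.60 ± 0.093) led the 7 falls of 33 ADAM and ADAMTS genes, beside 4 rises. Serpins had 5 falls and 1 rise of 18, the collagen chaperone SERPINH1 (-0.42 ± 0.042) among the falls. Cathepsins, lysosomal proteases, had 6 falls and no rise of 13, with CTSB going from 476 ± 35.6 to 321 ± 24.4 CPM (-0.57 ± 0.056) and CTSS falling by 0.84. Annexins and S100 proteins, which bind calcium and membranes, had the largest share of falls among families of 20 or more, 11 of 20. ANXA2 stood at 733, 693, 735, 783 and 617 CPM in the controls and 484, 532, 499, 491 and 559.7 CPM in the knockdown libraries. All controls lay above all knockdown libraries, and S100A16 (-0.62 ± 0.065) and S100A11 (-0.42 ± 0.058) fell with it.

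Ligands and cytokine receptors fell more than they rose, several of them at low level. Interleukins and their receptors had 12 falls and 1 rise of 37, led by IL6R (-1.22 ± 0.072), IL13RA2 (-1.12 ± 0.13), IL11 (-0.80 ± 0.10) and IL27RA (-0.49 ± 0.056). CXCL8, a neutrophil chemokine, stood at 18.4, 11.1, 13.9, 28.8 and 9.60 CPM in the controls and at 2.50, 1.32, 1.23, 1.57 and 1.90 CPM in the knockdown libraries. The controls differed widely among themselves, yet the lowest was above every knockdown library, and CXCL8 fell by 3.25 (SE 0.37, adjusted p = 0.000603). CXCL12, the ligand of CXCR4, went the other way, from 1.12, 1.29, 0.864, 1.10 and 1.47 CPM in the controls to 3.36, 3.55, 3.11, 3.97 and 3.49 CPM in the knockdown libraries. Every knockdown library was above every control, and it was the largest rise among genes above 0 log2 CPM (1.58 ± 0.14, adjusted p = 3.36e-08). TNF ligands and receptors had 9 falls, among them FAS (-0.40 ± 0.068) and TNFRSF21 (-0.29 ± 0.048), and 2 rises of 24, one of them the decoy receptor TNFRSF11B (0.67 ± 0.10). Of 30 genes of the TGF-beta superfamily 4 fell and 1 rose: GDF15 (-1.07 ± 0.078), TGFB1 (-0.74 ± 0.061) and its receptor TGFBR2 (-0.56 ± 0.053) fell, and GDF6 rose (0.91 ± 0.13). IGF-binding proteins had 3 falls of 7, led by IGFBP3 (-1.09 ± 0.062). Among FGFs and receptors FGFRL1 fell (-0.54 ± 0.066) and FGF2 rose (0.51 ± 0.054). WNT5A (-0.40 ± 0.049) and DKK3 (-0.23 ± 0.050) were among 6 falls of 33 Wnt and Frizzled genes.

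Feedback regulators of receptor signalling had falls too. Of 10 MAP kinase phosphatases 4 fell and none rose, DUSP4 (-0.34 ± 0.038), DUSP5 (-0.49 ± 0.072), DUSP16 (-0.29 ± 0.040) and DUSP10 (-0.36 ± 0.10), and of 7 Sprouty and Spred proteins, which restrain RAS signalling, SPRY2 (-0.29 ± 0.046), SPRY4 (-0.18 ± 0.037) and SPRED2 (-0.23 ± 0.045) were among 4 that fell while SPRY1 rose (0.35 ± 0.054). RGS2, which speeds the shut-off of G proteins, went from 72.5 ± 6.31 to 26.2 ± 1.65 CPM (-1.47 ± 0.058), 1 of 2 falls among 16 RGS genes. Receptor tyrosine phosphatases had 6 falls and 1 rise of 17. No SOCS gene was called, the most abundant being SOCS7 at -0.088 ± 0.039 (adjusted p = 0.183).

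Genes around MRCK, the kinases named in the study's title, were split. Of 19 tested, 3 fell and 3 rose. The myosin light chain kinase MYLK (-0.35 ± 0.049), the cofilin kinase LIMK1 (-0.30 ± 0.044) and the cofilin phosphatase SSH1 (-0.28 ± 0.043) fell, and ROCK2 (0.18 ± 0.041), another kinase of myosin, was among the rises. The MRCK genes themselves were not called, with log2 fold changes of -0.048 ± 0.041 for CDC42BPA, -0.023 ± 0.046 for CDC42BPB and 0.025 ± 0.073 for CDC42BPG, chosen for naming after their values were seen. Of 35 myosins 5 fell and none rose, including the filopodial MYO10 (-0.34 ± 0.046), MYO1D (-0.34 ± 0.052) and MYH15 (-0.54 ± 0.068). Kinesins, the motors of microtubules, leaned up, with 8 rises and 2 falls of 36: KIF4A (0.25 ± 0.043) and KIF15 (0.21 ± 0.050), which act in mitosis, rose, and the transport motors KIF1C (-0.45 ± 0.038) and KIF5A (-0.34 ± 0.044) fell.

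Transporters and enzymes followed the general lean. Of 275 solute carriers 36 fell and 7 rose, with the phosphate carrier SLC20A1 (-0.56 ± 0.039), the sialic acid exporter SLC17A5 (-0.70 ± 0.058), the glucose transporter SLC2A3 (-0.69 ± 0.060) and the zinc and iron carrier SLC39A14 (-0.42 ± 0.039) leading. Of 62 potassium channel genes 6 fell (9.68%, near the 9.45% of all protein-coding genes), among them KCNAB1 (-0.71 ± 0.047) and KCNMA1 (-0.45 ± 0.038). Glutathione transferases and metallothioneins, which bind zinc and copper, had 5 falls of 19, and 8 without knockdown 4 and control 5. MT2A stood at 61.8, 69.1, 78.0, 87.4 and 64.0 CPM in the controls and 30.3, 36.1, 37.5, 35.0 and 34.2 CPM in the knockdown libraries. Its groups did not overlap, and MT2A (-1.06 ± 0.093), MT1E (-0.82 ± 0.085) and MT1F (-0.998 ± 0.12) fell together. Metallothionein genes are near-identical copies, so the split of reads among them is uncertain. Of 25 sulphotransferases of glycans 8 fell, led by CHST1 and HS3ST3B1 (-1.16 ± 0.15), and of 33 O-GalNAc and sialic acid transferases 6 fell, with GALNT15 (-1.16 ± 0.10) and GALNT5 (-0.67 ± 0.051).

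Nuclear families changed less, and some had fewer falls than rises. C2H2 zinc finger proteins, the largest family of DNA-binding proteins, had 15 rises and 6 falls of 523, and 326 of the 523 had a positive log2 fold change. ZNF521 (0.59 ± 0.054) rose most. Other DNA-binding families were mixed. ZBTB factors had 2 falls and 3 rises of 42 and MYB factors 1 and 1 of 21. In several others falls outnumbered rises. KLF and SP factors had 7 falls and 1 rise of 18, bZIP factors 10 and 1 of 45 and ETS factors 4 and 1 of 20. KLF6 (-0.40 ± 0.047), KLF9 (-0.40 ± 0.073) and KLF3 (-0.21 ± 0.037) fell. KLF2, a factor known from endothelium and quiescent lymphocytes, rose from 1.02, 1.73, 1.24, 0.915 and 1.36 CPM in the controls to 2.32, 3.18, 3.43, 3.09 and 2.91 CPM in the knockdown libraries. All knockdown libraries were above all controls (1.25 ± 0.16, adjusted p = 8.17e-06). Nuclear receptors had 6 falls and 1 rise of 35, with NR4A3 (-0.30 ± 0.063) and NR4A2 (-1.32 ± 0.22). Of 85 genes grouped by symbol as cytosolic ribosomal proteins RPL7L1 alone was called (-0.40 ± 0.042), a gene that also holds GGGAGCT in its 3′ UTR. RPL7L1 is in the family by its symbol only, and no other member was called. Of the 85, 71 had a negative value, and the family median was -0.079. Knockdown 3, knockdown 4 and control 5 were low in this family as well, at -0.21, -0.23 and -0.23 from their groups. Proteasome subunits had 1 fall of 46 and NDUF subunits of respiratory complex I 1 of 37. No HES, HEY or ID factor and no snoRNA host gene was called. The falls without knockdown 4 and control 5 were 5 proteasome subunits, 2 HES, HEY or ID factors and 1 snoRNA host gene.

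Lists of cell type markers and of responses to siRNA were read in the same way, beside 9.45% falls and 3.37% rises over all protein-coding genes. Over all tested genes, which include many at low level, these shares were 6.98% and 2.55%. Abundant genes were called more often, 16.9% of those from 6 to 8 log2 CPM. Of 15 tested markers of mesenchymal neuroblastoma cells 8 fell and none rose: CD44, FOSL1 (-0.65 ± 0.074), WWTR1 (-0.62 ± 0.061) and VIM (-0.41 ± 0.048) had the smallest adjusted p. The list's summed level was 2506 to 2826 CPM in the knockdown libraries and 3119 to 3347 CPM in the controls. CD44 and FOSL2 are among the 3 of the 8 that hold a heptamer. Of 15 neuroblast (adrenergic) markers 3 rose, among them HAND1 (0.15 ± 0.045) and ISL1 (0.13 ± 0.040), and the summed level overlapped, at 5309 to 6170 CPM against 5276 to 5818 CPM. HAND1 lost its call in 6 and ISL1 in 7 of the 10 fits that leave out 1 library. In bulk RNA fewer cells of a type and less RNA per cell cannot be told apart.

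Markers of other lineages ranged from no read to high levels. Of 12 blood markers 9 were under 0.1 CPM in mean, 4 of them without a read, and the list summed to 0.583 to 1.12 CPM in the knockdown libraries and 0.66 to 1.00 CPM in the controls. The epithelial genes CDH1, ESRP1, GRHL2, KRT5 and KRT14 and the endothelial genes CDH5, EMCN, ERG and KDR were under 0.1 CPM as well, whereas the most abundant of their lists were KRT18 at 23.9 CPM and EGFL7 at 29.8 CPM in mean over all libraries. The epithelial list summed to 34.8 to 41.2 CPM against 32.7 to 37.3 CPM and held 1 rise, KRT18 (0.30 ± 0.062), and 1 fall, CLDN4 (-0.38 ± 0.10). The endothelial list summed to 29.9 to 33.4 CPM against 32.3 to 38.5 CPM, with falls of ROBO4 (-1.19 ± 0.22) and PECAM1 (-1.74 ± 0.30) at under 2 CPM. Fibroblast and smooth muscle markers summed to 2549 to 3657 CPM against 2726 to 2853 CPM, with 3 rises, LUM (0.26 ± 0.066) and DCN (0.45 ± 0.11) among them, and 2 falls, POSTN (-0.31 ± 0.052) and ACTA2 (-0.35 ± 0.072); DES and TCF21 were under 0.1 CPM, and COL1A1, at 2394 CPM in mean, made up most of the sum. Schwann and glial markers summed to 56.5 to 63.1 CPM against 67.6 to 75.5 CPM, with falls of PMP22 (-0.21 ± 0.047) and NGFR (-0.44 ± 0.086); CDH19, FOXD3 and TFAP2A were under 0.1 CPM, and PMP22, at 50.3 CPM in mean, was the most abundant. None of 12 housekeeping genes was called. The part of cell composition in any of these results was not tested.

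Of 16 genes of the machinery that small RNAs use, 4 rose slightly and 1 fell. AGO2, the Argonaute that cleaves, stood at 157, 149.97, 146, 155 and 175 CPM in the controls and 187, 185, 210.1, 204 and 172 CPM in the knockdown libraries. Control 5 overlapped the lowest knockdown library, number 5, and the log2 fold change was 0.29 ± 0.055 (adjusted p = 0.00108). AGO4 (0.21 ± 0.054) and the decapping enzyme DCP2 (0.15 ± 0.042) rose, and the deadenylase CNOT7 fell (-0.19 ± 0.046). Without knockdown 4 and control 5 DCP2 was no longer called. Of 26 genes of double-stranded RNA sensing and the interferon response 1 rose, IFIT1 (0.43 ± 0.12), and 1 fell, OASL (-1.32 ± 0.32), both at under 4 CPM, and IFNB1 had no read. The list summed to 1061 to 1132 CPM against 1047 to 1080 CPM. A difference between 2 pools does not show what either pool does against untreated cells.

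**Figure D4:**
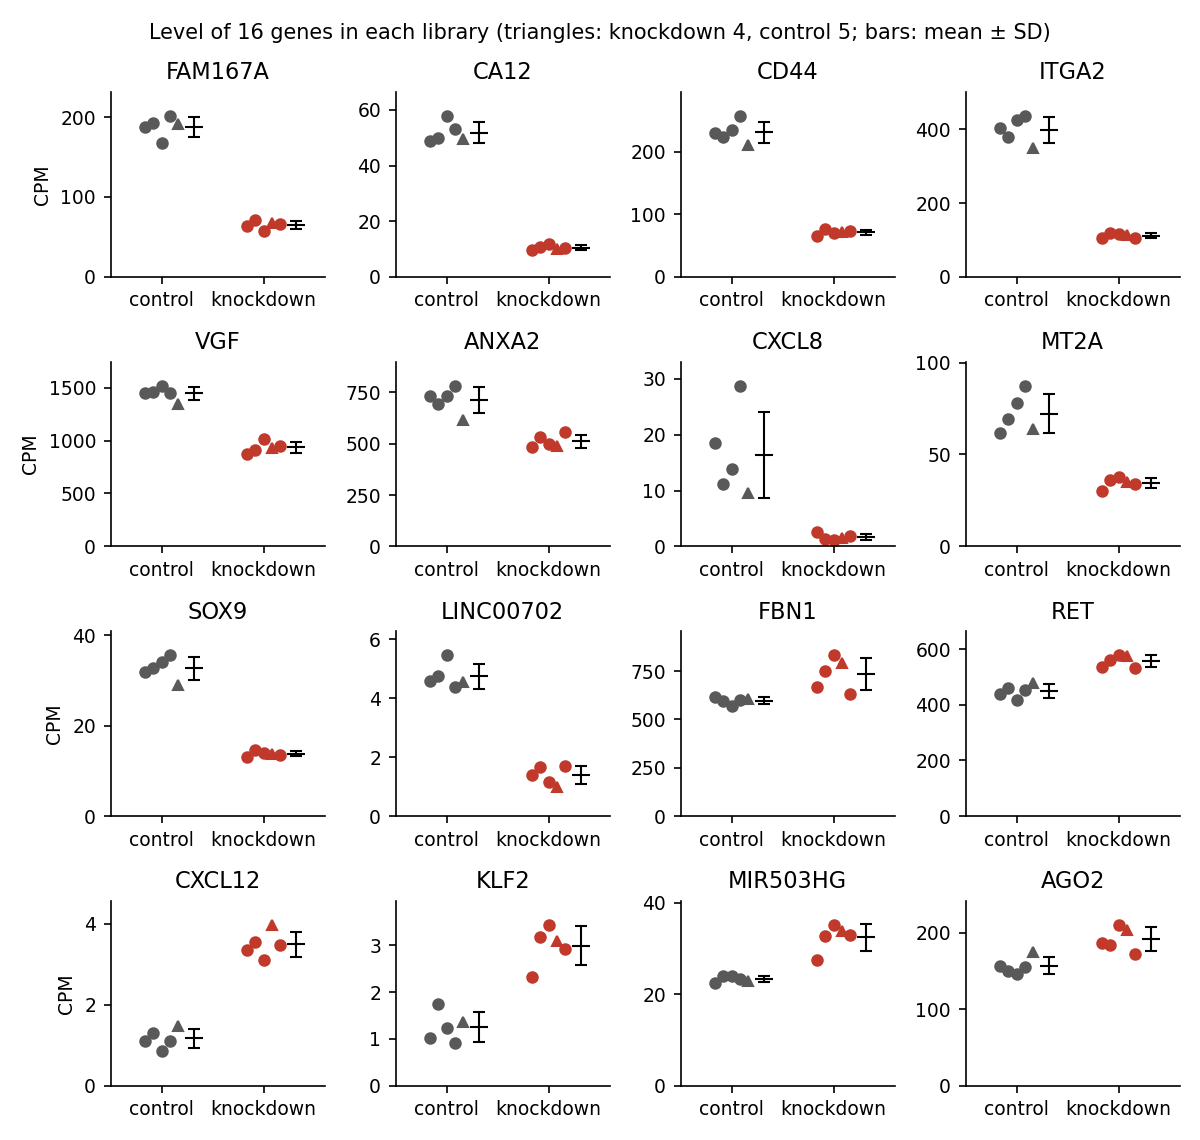
Each panel gives the level of a gene in CPM in the 5 control libraries (grey) and the 5 knockdown libraries (red), with triangles for control 5 and knockdown 4 and bars for mean ± SD. The groups are apart in all panels but AGO2, and the controls of CXCL8 range from 9.60 to 28.8 CPM.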

How the data were processed

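The deposited counts are the authors' raw reads of each gene in the 5 knockdown and 5 control libraries. Poly-T beads captured the messenger RNA, and the protocol covers both stranded and non-stranded libraries, per the labels. The submitters' processing notes name bcl2fastq 2.20.0.422 and 2.20, CASAVA, FastQC 0.11.8, STAR 2.6.1d, featureCounts 1.5.1 and GRCh38. Not given in the sources used here are the tools' roles, the release of the annotation and the use of strand in counting.

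Counts were fitted in R 4.3.3 with edgeR 4.0.16: filterByExpr (minimum count 10, minimum total 15), TMM scaling, the robust quasi-likelihood test and Benjamini-Hochberg adjustment over all 21018 genes tested, called at an adjusted p under 0.05. The libraries held 71464698 to 90255175 reads, 99.9% of them in tested genes. Standard errors come from the estimate and the test statistic. Alternatives used DESeq2 1.42.0, limma 3.58.1, other filters and fewer libraries. Shares of reads were compared by exact permutation. Biotypes, lengths and symbols come from the deposited table, families from symbol patterns. The 3′ UTRs are the longest per gene, at least 50 bases, in GENCODE release 29, and RefSeq gave the mature miRNAs. SK-N-SH CRISPR interference counts, fitted the same way, served as background for the heptamers, and SK-N-AS was not used here. The scripts were tested on simulated data.

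Named genes are FAM167A, the 10 largest gains and losses in mean CPM, up to 3 per biotype and direction, 1 per level and direction, up to 4 per family, list or heptamer by adjusted p or size. The experiment, its gene families and the lists were chosen with earlier results of these data known. Deviations of same-numbered libraries from their groups correlated at -0.38 to 0.085 in the 5 pairs, below the 0.40 of knockdown 4 with control 5. The numbers thus give no ground for pairing the libraries, but library differences of this kind could hide a pairing. Replicates of a group differed by more than sampling noise (chi-square per gene 6.45 to 44.6). Results on some genes and families are not reported here.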

Additional observations from a re-analysis of the deposited data

Results flagged for a closer look

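Of 106 groups of 5 libraries examined (levels of the genes discussed and shares of reads), 11 held a library whose gap to its nearest neighbour was large against the range of the group, where chance gives about 1 in 20. Of the 11, 7 were control library 5 and 2 were knockdown library 4, the libraries that stand apart in all genes. Control 5 had 0.521% of reads in lincRNA (the other controls 0.448% to 0.463%), 0.0794% in TEC loci (0.0639% to 0.0667%), 0.0568% in misc RNA (0.0223% to 0.0258%), 0.00331% in snoRNA (0.00233% to 0.00247%) and 0.00563% in miRNA genes (0.00462% to 0.00485%). Ribosomal protein genes took 4.78% of its reads, below the 5.39% to 5.56% of the other controls, and OR10AC1 stood at 27.4 CPM in it, below 31.4 to 31.8 CPM. Knockdown 4 had 0.454% of reads in antisense genes (the other knockdown libraries 0.398% to 0.413%) and 2.97 CPM of CHST1 (2.02 to 2.28 CPM). LINC00963 stood at 30.9 CPM in knockdown 1, below 34.4 to 34.9 CPM, and HAND2-AS1 at 514 CPM in control 4, below 548 to 560 CPM. OR10AC1, CHST1 and LINC00963 were called with and without knockdown 4 and control 5.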

How the results depend on the processing

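No called gene was called in the opposite direction under any alternative run, and each shared 1389 to 1976 of the 2004 calls. Rises numbered 536, and 813 with DESeq2, those of at least 2-fold 18, and 8 with DESeq2, 67 with limma voom and quality weights, 40 with no filter, 3 with a filter at 1 CPM and 41 without knockdown 4 and control 5. Falls of at least 2-fold numbered 129, and 75 with the filter at 1 CPM, which tests 15057 genes. For the rest the cause was not tested. The replicate number as a block, which the check of the numbers gives no ground for (0 of 5 libraries correlated best with their own number), gave 1532 calls, 322 rises and 11 rises of at least 2-fold. Leaving out 1 library in turn gave 1406 to 2515 calls, 282 to 774 rises, 1124 to 1741 falls, 9 to 88 rises and 112 to 143 falls of at least 2-fold, the most rises without control 5 and the fewest without control 4. Of 295 named genes called, 245 were called under every alternative that tested them. Counts per class were compared only for the classes with the most calls, 4 biotypes, 6 levels and 13 families. They stayed within 1.5 times in 53 of 68 comparisons for biotypes, 98 of 102 for levels and 213 of 221 for families. The stability of the families with few calls is not covered by these counts. Depth limits genes below 0 log2 CPM most, where the median standard error is 0.34.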
